A study of Mus musculus with 8 samples.

Results

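The 4 arrays of vehicle-treated ATCL7 cells, of 8 arrays in the series, give the baseline expression of this line, and they were chosen by the treatment named in their titles. ATCL7 is an immortalized line from a mouse adrenocortical tumour, labelled male. The cells had been grown with 2.5% each of foetal bovine and horse serum. They were then kept for 24 h in medium with 0.025% of each serum and 0.01% DMSO (v/v), which served as vehicle. The other 4 samples received 0.5 µM BIO (6-bromoindirubin-3'-oxime), an inhibitor of glycogen synthase kinase 3, in the same low-serum medium for the same time. Each sample held 250000 cells, and 250 ng of its total RNA was read on 1 Affymetrix Mouse Gene 1.1 ST array. The vehicle samples are numbered 1 to 4 after the pairs of the titles. All values describe this 1 line in low serum, and the labels do not say whether the samples came from separate cultures. The spread between arrays may therefore be partly technical.

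The adrenal cortex makes steroid hormones from cholesterol. Adrenocorticotropic hormone (ACTH) binds its receptor MC2R, raises cyclic AMP and, through protein kinase A, turns on the genes of cholesterol transport and steroid synthesis, most of which are targets of steroidogenic factor 1 (Nr5a1). The enzymes of the later steps differ between the zones of the cortex, and the gonads, which arise from the same primordium, share the early steps and many regulators.

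Values are log2 signals, given as mean ± SD over the 4 vehicle arrays (n = 4) unless each array is listed. The brightness of a probe set depends on its probes as well as on its transcript, so an order of signals is not an order of transcript numbers. No detection call was used here. As a dim reference the 1097 olfactory receptor genes on the array were taken, which are not expected in a cortical line. Their median was 3.63, and their 95th percentile was 4.81, 4.90, 4.84 and 4.82 on replicates 1 to 4. A gene above that percentile on all 4 arrays is called above the olfactory range. By this rule 13459 of 20719 genes (65.0%) were above it, 11744 of them also above the 99th percentile (56.7% of all genes), and the median over all genes was 6.44. The 1715 genes between the percentiles are called edge genes. A value within the range does not show that the transcript is absent.

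**Figure D1:**
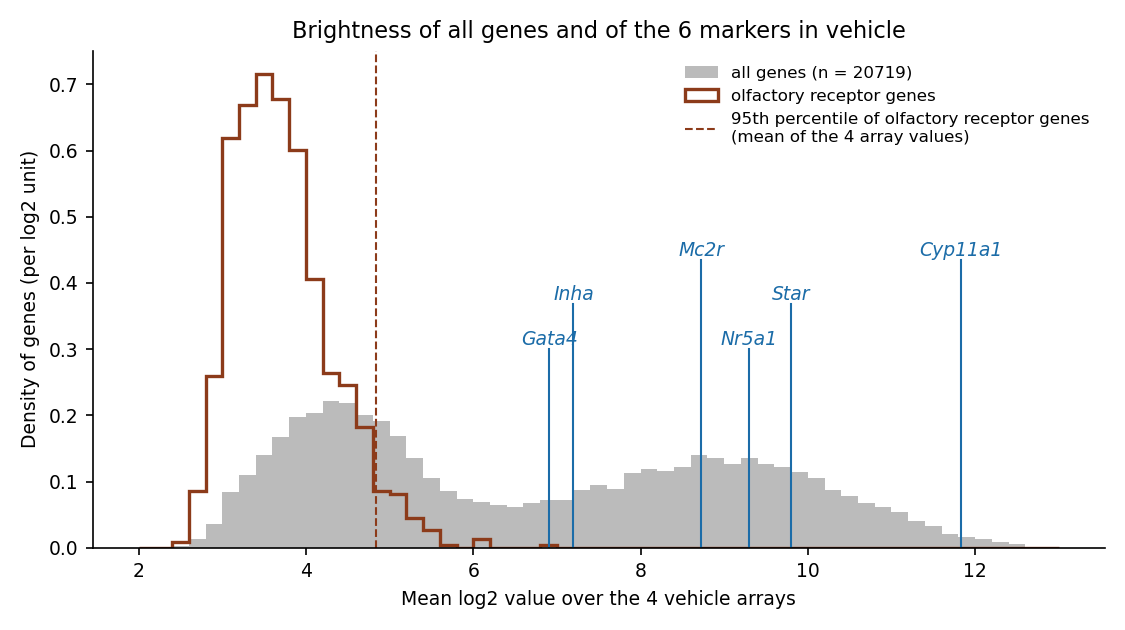
Distribution of the mean log2 value over the 4 vehicle arrays (x axis) for all 20719 genes (grey) and for the 1097 olfactory receptor genes (brown outline), as density per log2 unit (y axis), with the mean of the 4 arrays' 95th percentiles of the olfactory receptor genes as a dashed line. The 6 markers (blue lines), from Gata4 at 6.91 to Cyp11a1 at 11.84, all lie to the right of that line.

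The 4 arrays were not equally alike. Array medians lay between 5.70 and 5.73. Across genes, which are not independent replicates, replicates 3 and 4 correlated at 0.9985 and replicates 1 and 2 at 0.9973. The other 4 correlations ran from 0.9948 (replicates 2 and 4) to 0.9972 (replicates 1 and 3). Among genes above the olfactory range, 11 differed by at least 1 log2 between replicates 3 and 4, 23 between 1 and 2, and 187 between 2 and 4. Of the between-array sum of squares of these genes, 66.4% lay on 1 component, with weights of 0.35, 0.61, −0.34 and −0.62 on replicates 1 to 4. Replicates 1 and 2 thus stood apart from replicates 3 and 4, and the genes behind this are described further on.

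All 6 genes used as markers of adrenocortical identity were above the olfactory range, against 65.0% of all genes. Cyp11a1 and Star are also counted below among Leydig cell genes, and Inha among granulosa and theca cell genes. The count therefore does not set the cortex apart from the gonads. Cyp11a1, the side-chain cleavage enzyme that makes pregnenolone from cholesterol, read 11.96, 11.59, 11.97 and 11.82 on replicates 1 to 4. Star, which brings cholesterol into mitochondria, read 9.89, 9.13, 10.09 and 10.08. Star differed more between the arrays. Nr5a1 itself read 9.39, 9.17, 9.29 and 9.33 (SD 0.09), close to the median SD over all genes, which is also 0.09. Mc2r, the ACTH receptor, read 9.10, 8.44, 8.79 and 8.59. The inhibin subunit gene Inha read 7.54, 6.90, 7.19 and 7.17. Gata4, a factor of the gonads and of adrenal tumours, read 6.87, 6.69, 7.00 and 7.09. The SD of all 6 was over the median SD of all genes, which by definition 50.0% of genes exceed, with Nr5a1 barely over it and the other 5 from 0.17 for Gata4 and Cyp11a1 to 0.46 for Star. Replicate 2 was the lowest array for each of the 6, against 30.1% of genes above the olfactory range. In RNA from a whole culture, fewer cells of a kind and less RNA per cell cannot be told apart.

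Genes of cholesterol supply were uniformly bright. All 18 measured members were above the olfactory range, against 65.0% of all genes. Their median was 9.56, against 6.44 for all genes, and their median SD 0.08. Soat1, which stores cholesterol as esters, read 10.60 ± 0.03. Scarb1, the receptor that takes up cholesterol esters from lipoprotein, read 10.51 ± 0.08, and Tspo, a cholesterol-binding protein of the outer mitochondrial membrane, 10.52 ± 0.06. The least even member was Abca1, a cholesterol exporter, at 8.57, 7.88, 9.07 and 8.79. It was higher in replicates 3 and 4 than in 1 and 2, as were 8 of the 18 members (24.1% of all genes were).

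Among genes of steroid synthesis, 21 of 35 measured members (60.0%) were above the olfactory range, close to the 65.0% of all genes, and 14 were not, with a median of 7.14. The electron carriers of mitochondrial P450 enzymes were above it, Fdx1 at 8.67 ± 0.24 and Fdxr at 8.96 ± 0.15, as was Por, which serves the microsomal ones, at 10.10 ± 0.06. None of the 4 measured genes of 3β-hydroxysteroid dehydrogenase, which turns pregnenolone into progesterone, was above the range on all 4 arrays. Hsd3b1, the main adrenal form, read 6.78, 5.79, 5.47 and 4.69. It was above the range on 3 arrays and within it on replicate 4. Hsd3b6 read 5.79, 4.82, 4.77 and 4.68, with replicate 1 alone above the range. Hsd3b2 and Hsd3b3 both read 3.73. These genes have closely similar sequences, so probes of one can read another.

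Of the enzymes that complete the adrenal hormones, only Cyp11b1 among those listed was above the range. Cyp11b1, the 11β-hydroxylase of the zona fasciculata, read 6.53, 6.06, 5.89 and 6.51. Cyp11b2, the aldosterone synthase of the zona glomerulosa, read 4.22 ± 0.14, and Cyp21a1, the 21-hydroxylase, 4.60 ± 0.09. Both were within the olfactory range on all 4 arrays. Cyp17a1, which the mouse adrenal uses little and the gonads need for androgens, read 4.03 ± 0.12. The gonadal enzymes Cyp19a1 (aromatase) and Hsd17b3 (which makes testosterone) read 4.00 ± 0.07 and 3.86 ± 0.08. Hsd11b1, which reactivates glucocorticoid, read 4.01 ± 0.07 and was within the range as well.

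Reductases that break down or divert steroids differed among themselves. Akr1c18, the 20α-hydroxysteroid dehydrogenase that inactivates progesterone and marks the X-zone of the mouse adrenal, read 9.98, 9.33, 11.72 and 11.91. Replicates 3 and 4 were higher than replicates 1 and 2, and the lowest and highest arrays lay 5.95-fold apart. Akr1c14, a related reductase, read 7.22, 6.07, 7.49 and 7.80, with the same 2 arrays on top. Akr1b7, an aldose reductase of the zona fasciculata and a target of ACTH, read 8.96, 7.96, 8.72 and 8.17, so that replicates 1 and 3 were the higher ones. Srd5a1, a 5α-reductase, varied little (9.45 ± 0.10). Its relative Srd5a2 (4.56 ± 0.06) and Akr1c6 (4.38 ± 0.04), another reductase, were within the olfactory range on all 4 arrays. Hsd17b10 and Hsd17b12, which also act on fatty acids, read 10.66 ± 0.10 and 9.92 ± 0.03. Akr1c genes form a cluster of similar sequence, and the same limit on probes holds for them.

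**Figure D2:**
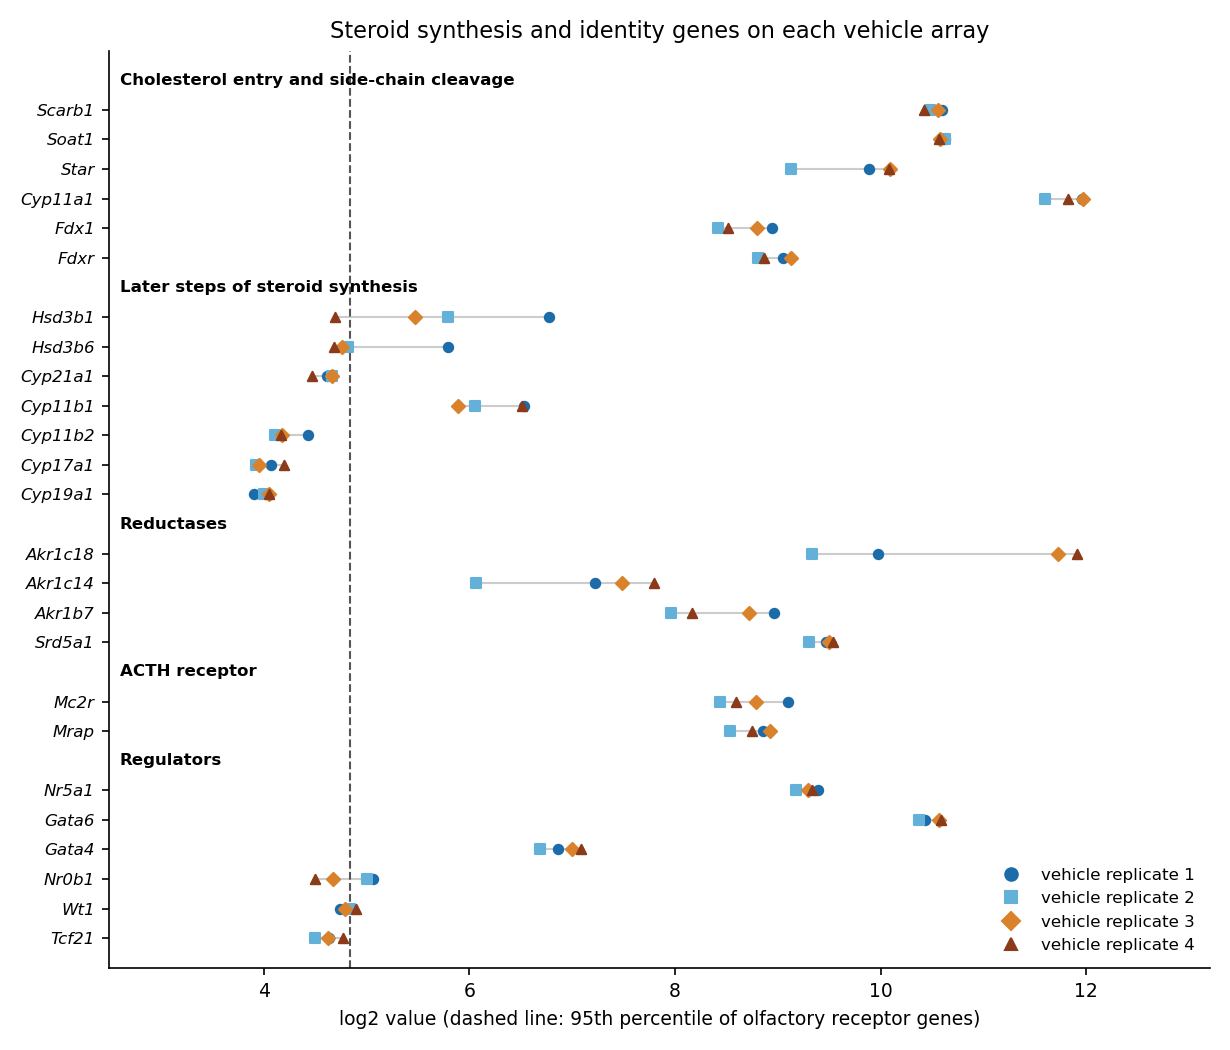
log2 value (x axis) of genes of steroid synthesis and adrenal identity (rows) on each of the 4 vehicle arrays (symbols by replicate), with a grey line from the lowest to the highest array and the 95th percentile of olfactory receptor genes dashed. Cyp11a1 lies between 11.59 and 11.97, Hsd3b1 spans the dashed line from 4.69 to 6.78, and Akr1c18 is split, with replicates 1 and 2 at 9.98 and 9.33 and replicates 3 and 4 at 11.72 and 11.91.

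The ACTH signal chain was above the olfactory range from receptor to kinase. Mrap, the accessory protein that carries MC2R to the cell surface, read 8.85, 8.54, 8.92 and 8.75, while the related Mrap2 was within the range (4.68 ± 0.12). Gnas, the stimulatory G protein subunit, read 10.20 ± 0.05. All 6 listed subunits of protein kinase A were above the range, from Prkar1b at 8.49 to the regulatory subunit Prkar1a at 11.22 ± 0.05. Of 9 adenylyl cyclases 5 were above it, with Adcy6 at 8.81 ± 0.13 and Adcy3 at 7.96 ± 0.10. Of the phosphodiesterases known from human adrenal tumours, Pde8a read 9.27 ± 0.20 and Pde2a 5.35 ± 0.18, an edge value, while Pde8b (4.92 ± 0.11) and Pde11a (4.72 ± 0.09) were within the range. Over the list, 20 of 27 members (74.1%, against 65.0% of all genes) were above it, with a median of 8.49. In 12 of the 27, replicates 3 and 4 were both higher than 1 and 2 (24.1% of all genes were).

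Transcription factors of the adrenal and gonadal primordium were mostly above the range, in 28 of 34 cases (82.4%), 4 of them at the edge. Over all genes the share above it was 65.0%. Cited2, a coactivator, read 11.45 ± 0.08. Osr1, a factor of the intermediate mesoderm, read 11.29 ± 0.06. Gata6, the GATA factor of the adult adrenal cortex, read 10.43, 10.38, 10.56 and 10.59. The orphan receptors Nr2f1 and Nr2f2 read 9.19 ± 0.14 and 8.92 ± 0.05, and Lhx9, a factor of the early gonad, 8.04 ± 0.28. Sox9, the factor that directs Sertoli cells, was also above the range at 7.45 ± 0.05. Nr0b1, which encodes DAX1 and represses Nr5a1 targets, was not. It read 5.06, 5.01, 4.68 and 4.49, above the range in replicates 1 and 2 only. Wt1 (4.82 ± 0.07) and Tcf21 (4.63 ± 0.11), factors of the coelomic lining and capsule, and Nr5a2 (4.33 ± 0.05), a close relative of Nr5a1, were not above it either. Foxl2, the ovarian factor, was at the edge (5.26 ± 0.10).

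The zone markers gave a mixed picture. Of 12 zona fasciculata genes, with a median of 8.59, 9 were above the range, against 65.0% of all genes. Besides Star, Scarb1, Mc2r, Mrap, Akr1b7 and Cyp11b1 these 9 included Mgst1 (9.38 ± 0.35), a glutathione transferase, and Gsta4 (5.90 ± 0.21). Of 16 zona glomerulosa genes, 7 (43.8%, against 65.0% of all genes) were above it and the median was 4.81. Whether the share of either zone differs from that of all genes was not tested. Dab2, an adaptor protein used as a marker of that zone, read 10.85, 10.67, 10.68 and 10.38. Wnt4, a ligand made there, read 6.79, 6.95, 7.15 and 7.53. The angiotensin receptors read 5.69 ± 0.07 for Agtr1b and 5.02 ± 0.06, an edge value, for Agtr1a. Shh, the Hedgehog ligand of the outer cortex, was within the range (4.48 ± 0.04), as were the potassium channels Kcnj5 (4.07 ± 0.17) and Kcnk9 (4.33 ± 0.07). Beside Akr1c18 and the widely used Pik3r1 (9.42 ± 0.09), the X-zone list had Cyp2f2 at the edge (5.20 ± 0.02), and Pik3c2g (4.34 ± 0.07) and Thrb (4.45 ± 0.04) within the range. The Hedgehog receptor Ptch1 read 8.09 ± 0.09, and Gli1, which marks capsular cells, was at the edge (5.17 ± 0.10).

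In each list of gonadal cell markers the share above the range was below the 65.0% of all genes. No count was made with the genes shared with the adrenal set aside. For Leydig cells, 5 of 11 measured genes (45.5%, against 65.0% of all genes) were above it. These were Cyp11a1, Star, Nr2f2, the inter-alpha-trypsin inhibitor gene Itih2 (8.52 ± 0.15) and Ren1 (6.58 ± 0.81), which encodes renin. The luteinizing hormone receptor gene Lhcgr (3.39 ± 0.04) was within the range. For Sertoli cells, 6 of 16 (37.5%) were above it, among them Sox9, Clu (8.85 ± 0.28) and Dhh (6.33 ± 0.11), a Hedgehog ligand. Amh, the hormone of Sertoli and granulosa cells, was above it on 3 of 4 arrays (4.93 ± 0.18), and Fshr, the receptor for follicle-stimulating hormone, on none (4.34 ± 0.09). For granulosa and theca cells, 8 of 16 (50.0%) were above it, including the activin subunit genes Inhba (8.63 ± 0.35) and Inhbb (6.46 ± 0.13). Insl3, a Leydig cell hormone, had no probe set with that symbol here.

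Defining markers of several other cell types were within the range or at its edge. Over all genes the share above the range was 65.0%. The rate-limiting enzyme of catecholamine synthesis, Th, read 4.43 ± 0.13, and Pnmt, which makes adrenaline, 4.17 ± 0.05, both within the range on all 4 arrays. Of the 16 medulla genes 7 were above it, 6 of these at the edge, and none exceeded the peptide gene Cartpt at 5.56 ± 0.10. Among 11 endothelial genes 3 were above it, Egfl7 (5.92 ± 0.05) and, at the edge, Vwf (5.43 ± 0.09) and Cldn5 (5.03 ± 0.07). Pecam1 (4.51 ± 0.06) and Cdh5 (4.54 ± 0.06), defining adhesion proteins, were not. Among 14 blood and immune genes 4 were above it, led by Cd68 (7.70 ± 0.13), a lysosomal protein that other cells also make. The others were Cd14 (6.62 ± 0.15), Hba-a1 (5.76 ± 0.06) and, at the edge of the range, Cd3e (5.34 ± 0.04). The common leukocyte gene Ptprc (4.56 ± 0.12) and the macrophage genes Adgre1 (4.08 ± 0.05) and Csf1r (4.39 ± 0.03) were within it. Counts above the range were 1 of 8 for hepatocytes, 2 of 10 for germ and pluripotent cells, and 4 of 9 for glia and nerve, where Sox10 was at the edge (5.01 ± 0.04) and Tubb3, a neuronal tubulin, was above it (7.06 ± 0.23). In germ and pluripotent cells the pair was Kit, which somatic cells also express (6.45 ± 0.45), and Prm1, a sperm protamine (5.62 ± 0.38), of which replicate 1 stood apart.

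**Figure D3:**
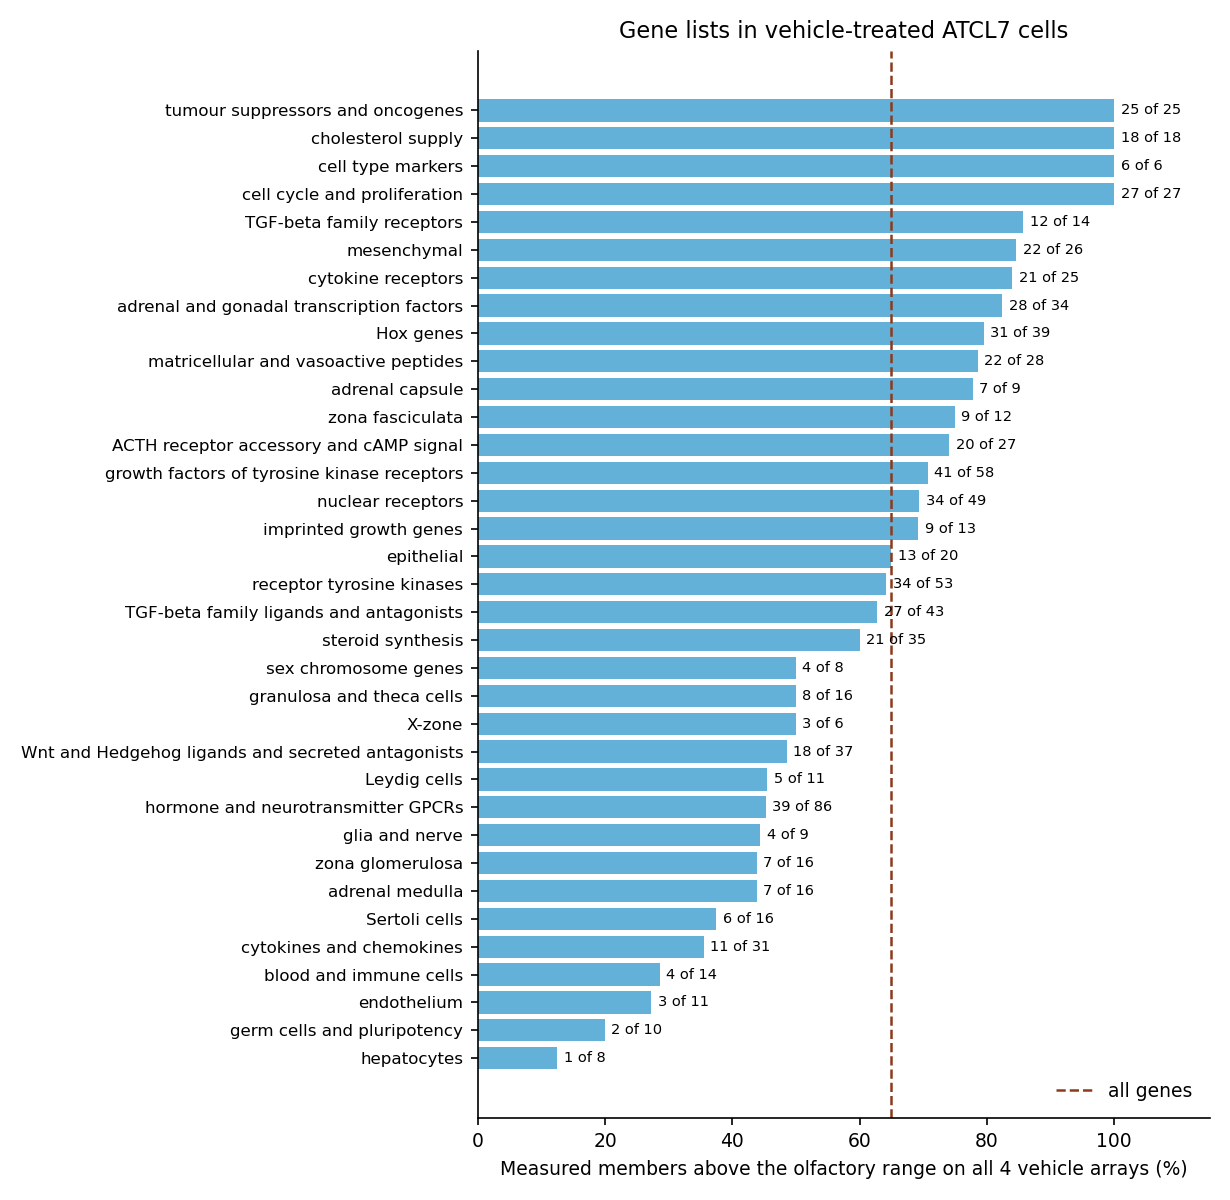
Percent of measured members above the olfactory range on all 4 vehicle arrays (x axis) for each of the 35 gene lists (rows), with the counts at the bar ends and the 65.0% of all genes as a dashed line. Cholesterol supply, cell cycle, tumour suppressors and oncogenes, and the 6 markers reach 100%, while hepatocyte, germ cell, endothelial and blood cell lists lie between 12.5% and 28.6%.

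Several mesenchymal genes were among the bright signals, while 22 of 26 on that list (84.6%) and 13 of 20 on the epithelial list (65.0%) were above the range, against 65.0% of all genes. The medians were 6.50 and 5.51, against 6.44 for all genes. Vim, the intermediate filament protein of mesenchyme, was among the 30 brightest genes of the arrays (12.44 ± 0.03). Fn1, fibronectin, read 12.08 ± 0.16, Acta2, smooth muscle actin, 11.96 ± 0.03, Sparc 11.87 ± 0.06 and Cdh2, N-cadherin, 10.84 ± 0.18. The repressors of epithelial genes Zeb2, Zeb1 and Snai2 read 9.99 ± 0.14, 9.34 ± 0.19 and 9.33 ± 0.07. The fibrillar collagen genes Col1a1 (6.18 ± 0.08) and Col1a2 (5.50 ± 0.10) were above the range, and Col3a1 (5.32 ± 0.04) was at its edge. The epithelial genes above it were led by the junction protein gene Tjp1 (9.63 ± 0.13) and the keratin gene Krt19 (9.12, 9.56, 8.72 and 8.78). E-cadherin (Cdh1, 4.97 ± 0.05) was at the edge, and Epcam (4.37 ± 0.15) and Esrp1 (3.99 ± 0.09), an epithelial splicing factor, were within the range.

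The brightest signals came from general cell machinery. By mean signal, with predicted gene models left out, the order began with the ribosomal RNA gene Rn18s (12.96 ± 0.02), Gapdh (12.86 ± 0.01), Rn28s1, the elongation factor gene Eef1a1 (12.80 ± 0.02), Rn7sk, Actb (12.77 ± 0.03) and Ldha (12.75 ± 0.02), which makes lactate. Of the 30 brightest genes 9 encoded histones, 4 ribosomal proteins, and Gapdh, Ldha, Eno1 (12.45 ± 0.01) and Aldoa (12.43 ± 0.04) enzymes of glycolysis and lactate formation. Of the 100 brightest, 21 encoded ribosomal proteins and 15 histones. Copies of histone genes are nearly identical, so their probe sets do not give separate measurements. Genes of a more particular kind among the 30 were Igfbp7 (12.43 ± 0.03), a secreted binding protein, Lgals1 (12.42 ± 0.05), a galectin, Tpm4, a tropomyosin, and Txn1, thioredoxin. The SD of the 30 ran no higher than 0.07.

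Cell cycle genes were above the range without exception and among the steadiest of the lists. All 27 were above it, against 65.0% of all genes. Their median was 10.61, against 6.44 for all genes, and their median SD 0.05. Cdk4, a kinase of the G1 phase, read 12.12 ± 0.03, Pcna, the replication clamp, 12.09 ± 0.07, and Ccnb1, a mitotic cyclin, 11.37 ± 0.04. Mki67, the common marker of cycling cells, read 11.11, 10.97, 11.14 and 11.06. Ccnd1 and Cdk6, a G1 cyclin and kinase, were the uneven members. Ccnd1 read 9.80, 10.46, 9.11 and 8.77, and Cdk6 read 8.42, 8.86, 7.49 and 7.08, higher in replicates 1 and 2. All 25 tumour suppressor and oncogene entries were above the range too, with a median of 9.86, including Cdkn1a (11.52 ± 0.07) and Trp53 (11.20 ± 0.08), p21 and p53, Ctnnb1 (11.50 ± 0.06), β-catenin, and Cdkn2a (9.76 ± 0.16). A level of RNA does not tell whether the gene is intact.

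Growth-related imprinted genes and sex-linked genes were uneven. Igf2, the fetal growth factor that is often raised in human adrenocortical carcinoma, was at the edge at 5.17, 5.17, 4.94 and 5.07, and its neighbour H19 was within the range (4.81 ± 0.04; a second, dimmer probe set read 4.41). Peg3 (8.12 ± 0.46) and Dlk1 (7.45 ± 0.52), a Notch-like membrane protein of immature cells, were above it. Of the 13 imprinted genes 9 (69.2%) were above it, close to the 65.0% of all genes. For the labelled sex, Eif2s3y (9.66 ± 0.16), Uty (9.41 ± 0.16), Ddx3y (9.19 ± 0.14) and Sry (6.27 ± 0.06) on the Y chromosome were above the range, but Kdm5d (3.77 ± 0.14), Zfy1 and Zfy2 were not. Xist, the RNA of the inactive X chromosome, was within it (3.50 ± 0.15).

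Hox genes, which mark position along the body axis, were above the range in 31 of 39 cases (79.5%, against 65.0% of all genes). The count was 26 of 27 for paralogue groups 1 to 9 and 5 of 12 for groups 10 to 13, 3 of these 5 at the edge. Hoxc8 read 11.17, 11.11, 11.26 and 11.40, Hoxb9 10.64 ± 0.08 and Hoxc6 9.40 ± 0.08. All 10 Hoxb genes and 10 of 11 Hoxa genes were above the range, against 6 of 9 Hoxc and 5 of 9 Hoxd genes, a difference that was not tested.

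Among receptors, 34 of 49 nuclear receptors (69.4%) were above the range, close to the 65.0% of all genes, with a median of 7.85. Thra, a thyroid hormone receptor, read 9.57 ± 0.17, and Nr1d2 and Nr1d1, repressors of the circadian clock, 9.47 ± 0.13 and 9.31 ± 0.20. All 3 retinoic acid receptors were above it, with Rara at 9.07 ± 0.09. Of the 6 steroid hormone receptors 3 were. The glucocorticoid receptor gene Nr3c1 read 8.92 ± 0.23 and Esr1, an oestrogen receptor, 5.35 ± 0.06 at the edge. Nr3c2 (4.34 ± 0.07), Pgr (4.23 ± 0.13) and Esr2 (4.12 ± 0.15), receptors for mineralocorticoid, progesterone and oestrogen, were within the range. Replicates 3 and 4 were both higher than replicates 1 and 2 in 17 of the 49 (24.1% of all genes were).

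Of 86 hormone and neurotransmitter receptors coupled to G proteins, 39 (45.3%, against 65.0% of all genes) were above the range. Of these 16 were at the edge, and the median of the list was 4.87. F2r, the thrombin receptor, read 11.21 ± 0.09, and Smo, the signal transducer of Hedgehog, 10.04 ± 0.11. Avpr1a, the vasopressin V1a receptor, read 9.52, 9.74, 9.71 and 9.77. Lpar6, for lysophosphatidic acid, read 9.26 ± 0.20, Adra1d, an α1-adrenergic receptor, 8.81 ± 0.24, and S1pr2, for sphingosine 1-phosphate, 8.75 ± 0.02. Of the 5 melanocortin receptors only Mc2r and, at the edge, Mc1r (5.42 ± 0.12) were above the range. The endothelin receptor Ednra read 5.75, 5.44, 6.76 and 7.09, higher in replicates 3 and 4, whereas its ligand Edn1 read 9.10, 9.16, 7.78 and 7.36, higher in replicates 1 and 2.

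The receptor chains named here for cytokines of the interleukin-6 family were all above the range. Il6st, their shared signalling chain, read 10.92, 10.84, 11.08 and 11.14. Osmr, the oncostatin M receptor, read 10.22, 10.04, 10.80 and 10.89. Lifr, the receptor for leukaemia inhibitory factor, read 9.91, 9.40, 10.86 and 10.94. Replicates 3 and 4 were higher in each of the 3, as in 15 of the 25 cytokine receptors (24.1% of all genes were). Cntfr, which joins Lifr and Il6st, read 10.26 ± 0.18, and one of its ligands, Clcf1, 8.85 ± 0.06. The ligand genes Lif (4.81 ± 0.22), Osm (4.33 ± 0.10) and Il6 (3.09 ± 0.16) were within the range. Interferon receptors were above it, with Ifngr2 at 11.34 ± 0.13, Ifnar2 at 10.33 ± 0.05 and Ifnar1 at 9.37 ± 0.06. Of the 25 cytokine receptors 21 (84.0%) were above it, against 65.0% of all genes.

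Of 53 receptor tyrosine kinases 34 (64.2%) were above the range, close to the share of all genes. Axl, a receptor of the TAM family, read 11.47 ± 0.12, and its ligand Gas6 10.03, 10.36, 9.76 and 9.51. Ror1 (10.25 ± 0.28) and Ryk (10.19 ± 0.07), receptors for Wnt ligands, followed. Igf1r, the receptor for insulin-like growth factors, read 9.71 ± 0.23, and Egfr 9.53 ± 0.19, of which replicate 2 stood apart. The ligand Igf1 read 6.34, 6.93, 5.80 and 6.10. Of the 4 receptors of the EGF family only Erbb4 (4.21 ± 0.14) was not above the range. All 3 TGF-β ligands, and 12 of 14 receptors of that family, were above it, with Bmpr1a at 10.47 ± 0.12 and Tgfbr2 at 9.23 ± 0.12.

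In 3 families the ligands named were above the range while receptors were within it or at its edge, with 1 exception among the receptors. All 4 platelet-derived growth factor genes were above it, with Pdgfa at 9.26, 9.77, 9.15 and 9.22, Pdgfb at 10.06, 10.36, 9.83 and 9.63, Pdgfc at 8.89 ± 0.26 and Pdgfd at 9.22 ± 0.27. Their receptor genes read 5.07 ± 0.10, an edge value, for Pdgfra and 4.41 ± 0.05 for Pdgfrb. Vegfa (10.40 ± 0.08) and Vegfb (9.90 ± 0.12), which act on endothelium, were above it, and their receptor genes Kdr (4.94 ± 0.27) and Flt1 (4.69 ± 0.10) were within it. The exception was the third receptor of that family, Flt4, which binds other VEGF ligands, at 6.74 ± 0.34. Of the 5 VEGF ligand genes listed, 4 were above the range, 1 of them at the edge, and 1 was not above it. The chemokine gene Cxcl12 read 11.02, 11.25, 11.02 and 11.10, and its receptor genes Cxcr4 (4.88 ± 0.12) and Ackr3 (4.59 ± 0.14) were within the range. Neurotrophins were an example of both partners above it. Ntf3 read 10.19 ± 0.13, and its receptor gene Ntrk3 7.07, 7.14, 7.84 and 8.03. Over the list, 41 of 58 growth factors (70.7%, close to the 65.0% of all genes) were above the range, 11 of them at the edge.

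**Figure D4:**
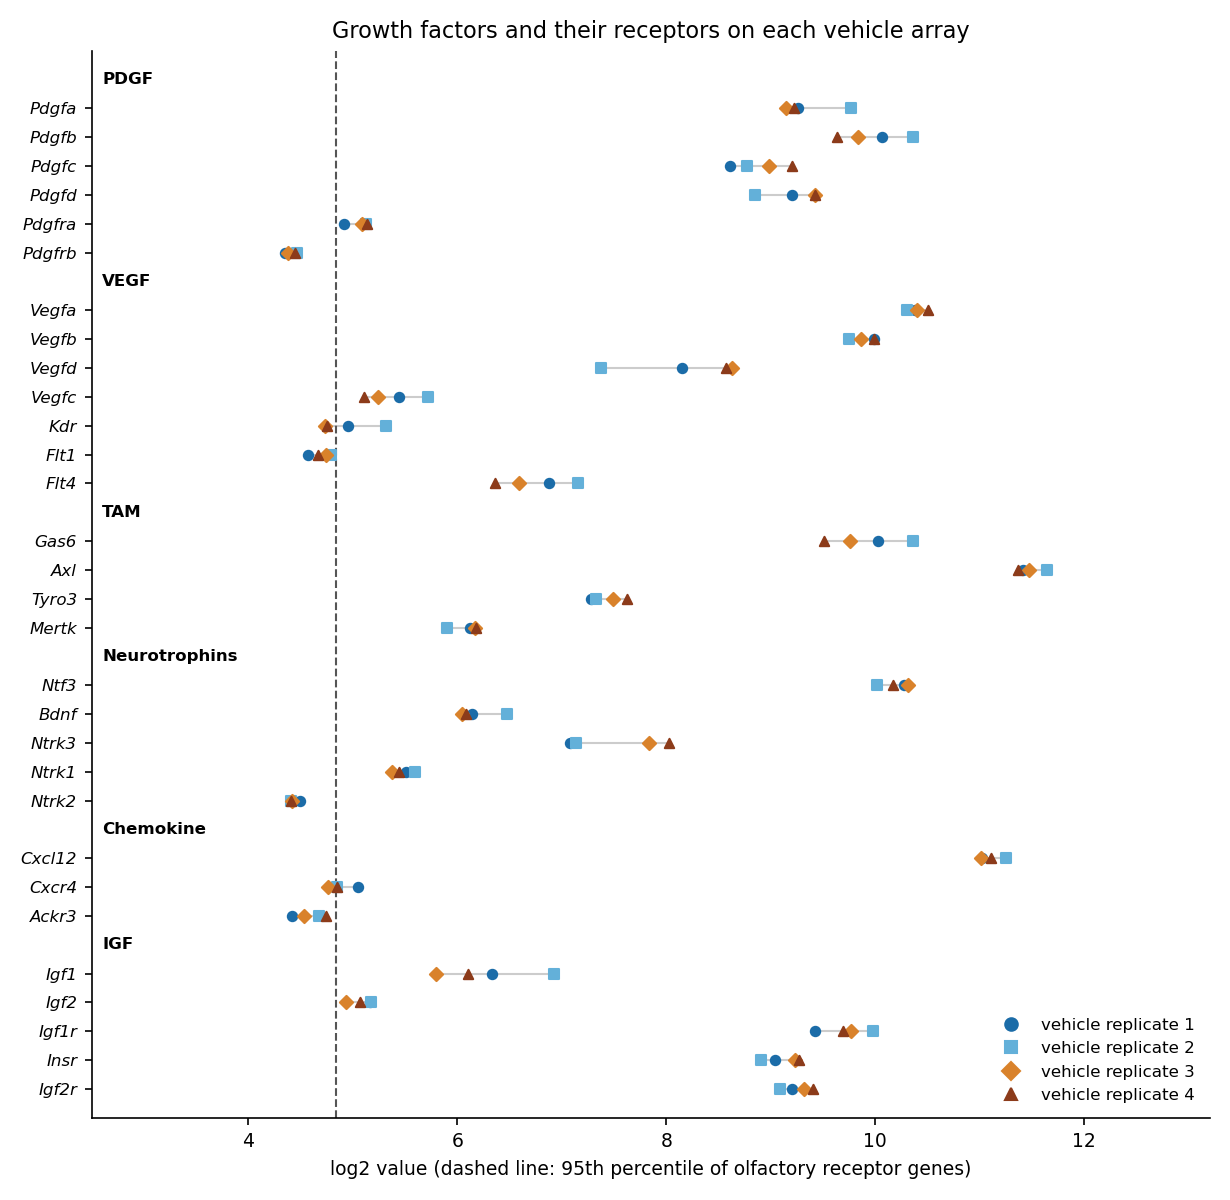
log2 value (x axis) of growth factors, a chemokine and their receptors (rows, by family) on each of the 4 vehicle arrays (symbols by replicate), with a grey line from the lowest to the highest array and the 95th percentile of olfactory receptor genes dashed. Pdgfa to Pdgfd lie between 8.61 and 10.36 while Pdgfrb lies left of the dashed line at 4.41 ± 0.05, and Gas6 and Axl both lie far to its right.

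Some secreted antagonists of BMP and Wnt signalling were above the range, as were some of their ligands. Bmp4 read 10.71, 10.52, 10.56 and 10.55, and its antagonist Grem1 10.23, 10.77, 9.93 and 9.67. Of 10 BMP genes 6 were above the range, 3 of them at the edge. Of 19 Wnt genes 8 were above it, led by Wnt10a (7.52 ± 0.30). Of 4 Dkk genes 3 were above it, 1 of them at the edge, and of 5 genes of the Sfrp family 3 were, 1 of them at the edge. The Wnt inhibitors Dkk2 and Sfrp4 read 10.44 ± 0.46 and 9.22 ± 0.38. Dkk1, another inhibitor, read 8.43, 6.98, 7.45 and 6.79, with replicate 1 highest, while Dkk4 (4.72 ± 0.09), Sfrp5 (4.33 ± 0.09) and Frzb (3.80 ± 0.09) were within the range. Fstl1 (11.15 ± 0.09) and Fstl3 (10.14 ± 0.13), relatives of the activin binder follistatin, were bright while Fst itself read 5.96 ± 0.39. Among other secreted products, the macrophage migration inhibitory factor gene Mif read 11.95 ± 0.05, the osteopontin gene Spp1 11.16 ± 0.17, stanniocalcin (Stc1) 11.95 ± 0.05 and the matrix signal genes Ccn2 and Ccn1 11.36 ± 0.18 and 11.16 ± 0.29. Of 31 cytokines and chemokines measured 11 (35.5%, against 65.0% of all genes) were above the range.

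Most genes differed little between the vehicle arrays. The median SD was 0.09 log2 over all genes. Among the 13459 genes above the olfactory range the 90th percentile was 0.21 and the 99th 0.55. An SD of at least 0.5 was found for 184 of them and of at least 1 for 22. The genes that varied most were above all genes that interferon induces. By symbol, 14 of the 30 with the greatest SD, and 18 of the 100, belong to the Ifi, Ifit, Irf, Isg, Oas, Mx, Gbp, Rsad2, Tgtp, Iigp, Igtp and Irgm families, which have 75 members on the array; this grouping was made after the values were seen.

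Trim30a, an interferon-induced ubiquitin ligase, varied most, at 9.35, 8.95, 7.43 and 6.21, an 8.83-fold range. Sp100, a nuclear body protein, read 9.48, 9.40, 7.84 and 6.67, and Tgtp1, an interferon-induced GTPase, 8.84, 8.82, 7.16 and 6.09. In these genes replicates 1 and 2 were close to each other and replicate 4 was lowest. The same held for the antiviral enzymes Oas1a (8.78, 8.60, 7.13 and 6.03) and Rsad2 (9.91, 9.89, 8.74 and 7.64). Ifit1, which binds foreign RNA, read 9.99, 10.08, 9.11 and 7.73, and Irf7, a factor that amplifies the interferon response, 11.09, 10.84, 9.74 and 8.96. The chemokine genes Ccl5 and Cxcl10 read 10.37, 10.18, 8.29 and 7.77, and 9.70, 9.37, 7.64 and 7.14. All were above the olfactory range on every array by the rule that chose them, so this is not a separate result. H2-Q6, a class I histocompatibility gene, read 10.61, 10.02, 9.23 and 8.09. Oas1a and Oas1g, Ifit3 and Ifit3b, and the H2 genes have near copies, so their probe sets are not independent.

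Of the 30 genes, 29 were higher in both replicates 1 and 2 than in both replicates 3 and 4, and Akr1c18 alone was the other way round. Over all genes the share split in this way was 44.2%, with 20.1% higher in replicates 1 and 2 and 24.1% higher in 3 and 4. Among genes above the olfactory range, from which the 30 were drawn, it was 48.6%. The choice by SD on these same arrays favours such a split, since their main component set replicates 1 and 2 against 3 and 4. Replicate 4 was the lowest array for 28 of the 30, against 18.7% of genes above the olfactory range. With that replicate left out 19 of the 30 remained among the 30 most variable. The BIO arrays, which had no part in choosing these genes, bear the same pair numbers. In 28 of the 30 the BIO arrays of pairs 1 and 2 stood on the same side of those of pairs 3 and 4 as in vehicle, the exceptions being Cdh11 and BB287469. Of all genes split in vehicle 45.3% did so, and of those above the olfactory range 53.8%. No source used here gives a scan or strip batch, and its part in this split was not tested.

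**Figure D5:**
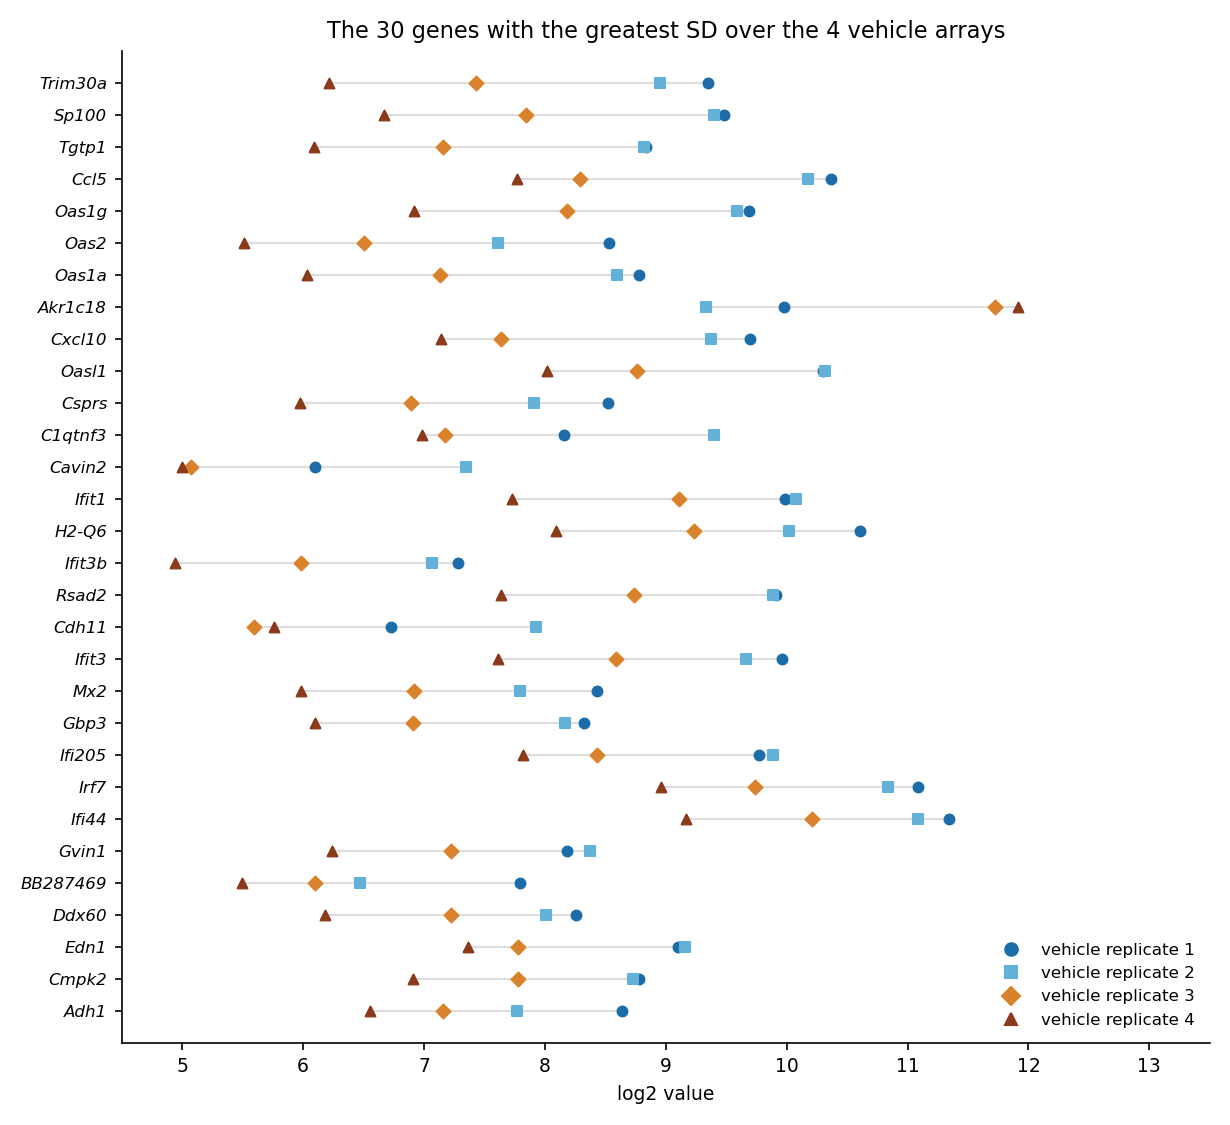
log2 value (x axis) of the 30 genes with the greatest SD over the 4 vehicle arrays (rows, in order of SD), with symbols by replicate and a grey line from the lowest to the highest array. Replicates 1 and 2 lie to the right of replicates 3 and 4 in 29 of the 30 rows, with Akr1c18 the exception.

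The promoters of these genes were searched for the interferon-stimulated response element, the site bound by interferon-activated factors, written as GAAA, any 2 bases and GAAA, and sought on both strands in the 250 bases before the transcription start (RefSeq, GRCm38.p6). A window was at hand for 24 of the 30 genes, and 13 of them held the motif, 54.2%. Near copies (Oas1a and Oas1g, Ifit3 and Ifit3b) are counted separately among them. Of the 100 most variable genes 72 had a window, and 21 of these held it, 29.2%. Of 15879 genes of the array with a window, 3.50% held it, as did 2.98% of all 32851 windows. The 5 windows below that hold it are shown because their genes varied together between the arrays. That of Akr1c18, which varied the other way and holds none, is set beside them. Sp100, Cmpk2 and H2-Q6, among others, varied in the same direction as the 5 and hold none either. Whether the motif goes with the direction was not tested. Capitals mark the motif, which reads as TTTC, any 2 bases and TTTC where it lies on the opposite strand. In Oas1a 2 matches overlap. A match is a description of letters and not a measured binding site.
The windows are chr19:34640639-34640888 on the plus strand for Ifit1, chr19:34583279-34583528 on the plus strand for Ifit3, chr12:26456453-26456702 on the minus strand for Rsad2, chr5:92348890-92349139 on the minus strand for Cxcl10, chr5:120907526-120907775 on the minus strand for Oas1a and chr13:4150647-4150896 on the minus strand for Akr1c18, each written 5′ to 3′ along its gene.
Ifit1: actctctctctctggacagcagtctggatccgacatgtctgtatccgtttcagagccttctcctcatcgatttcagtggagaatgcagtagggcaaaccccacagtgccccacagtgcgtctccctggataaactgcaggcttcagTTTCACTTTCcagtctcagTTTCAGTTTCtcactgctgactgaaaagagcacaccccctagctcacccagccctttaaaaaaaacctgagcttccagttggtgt
Ifit3: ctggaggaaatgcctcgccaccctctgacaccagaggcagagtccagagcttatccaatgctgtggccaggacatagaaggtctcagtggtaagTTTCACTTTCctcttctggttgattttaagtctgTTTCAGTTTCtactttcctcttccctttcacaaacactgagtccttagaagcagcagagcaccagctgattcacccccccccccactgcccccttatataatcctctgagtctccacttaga
Rsad2: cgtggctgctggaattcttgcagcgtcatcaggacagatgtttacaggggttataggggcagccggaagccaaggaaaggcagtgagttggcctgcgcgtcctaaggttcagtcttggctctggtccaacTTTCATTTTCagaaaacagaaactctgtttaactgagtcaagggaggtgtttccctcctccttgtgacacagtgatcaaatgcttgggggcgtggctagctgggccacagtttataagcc
Cxcl10: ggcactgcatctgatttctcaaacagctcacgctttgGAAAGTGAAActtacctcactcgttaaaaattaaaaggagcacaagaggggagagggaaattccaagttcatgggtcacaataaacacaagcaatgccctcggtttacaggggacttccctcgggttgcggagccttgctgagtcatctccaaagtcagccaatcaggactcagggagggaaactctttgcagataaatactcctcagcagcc
Oas1a: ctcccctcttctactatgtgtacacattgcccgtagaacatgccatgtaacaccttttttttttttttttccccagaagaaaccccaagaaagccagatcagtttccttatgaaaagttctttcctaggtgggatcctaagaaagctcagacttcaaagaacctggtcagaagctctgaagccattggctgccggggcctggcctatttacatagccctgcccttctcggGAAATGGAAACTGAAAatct
Akr1c18: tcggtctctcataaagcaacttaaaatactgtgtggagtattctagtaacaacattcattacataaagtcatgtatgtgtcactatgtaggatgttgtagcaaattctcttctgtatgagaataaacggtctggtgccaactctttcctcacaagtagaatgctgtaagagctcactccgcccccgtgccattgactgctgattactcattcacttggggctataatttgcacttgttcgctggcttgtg

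In the Ifit1 window the matches begin 104 and 85 bases before the start, in Ifit3 156 and 122 bases, in Rsad2 120 and in Cxcl10 213, and in Oas1a 20 and 14. Trim30a, Tgtp1, Oas1g, Ifit3b, Gbp3, Ifi205, Ddx60 and the endothelin gene Edn1 also held at least 1 match. Among interferon-induced genes with a window and no match in it were Irf7, Oasl1 and Ifi44.

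Some other variable genes that are not interferon-named were highest in replicate 2, while others, such as Adh1 and BB287469, were highest in replicate 1. Among the 100 most variable genes replicate 2 was the highest array for 47, replicate 1 for 41, replicate 4 for 11 and replicate 3 for 1. Of all genes above the olfactory range, 28.9%, 22.2%, 33.4% and 15.5% were highest on these arrays, in the same order. The 47 include interferon-induced genes such as Ifit1 and Oasl1, in which replicates 1 and 2 were close. Cdh11, a mesenchymal cadherin, read 6.73, 7.93, 5.59 and 5.76. Cavin2, a protein of caveolae, read 6.10, 7.35, 5.07 and 5.00, and Cav1, caveolin, 9.59, 10.33, 8.91 and 9.12. The secreted C1qtnf3 read 8.16, 9.40, 7.17 and 6.98. Other genes of this form were Tagln, an actin-binding protein (6.44, 7.48, 6.04 and 5.99), and Runx1, a transcription factor (7.53, 8.88, 7.12 and 7.29). In each of these genes replicate 1 was the next highest array.

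In 11 of the 100 most variable genes replicates 3 and 4 were both higher. Besides Akr1c18, Akr1c14, Lifr and Ednra they were Grin2a, a glutamate receptor subunit (6.95, 6.74, 8.14 and 8.47), Dab1, an adaptor of reelin signalling (9.15, 8.50, 9.95 and 10.11), Gda, guanine deaminase (7.00, 6.34, 7.63 and 8.05), Anxa8, an annexin (9.33, 8.15, 9.45 and 9.63), Ctla2a, a protease inhibitor (9.54, 8.64, 9.98 and 9.97), Diras2 and Vstm2a. For most of these replicate 2 was the lowest array. Of the 35 steroid synthesis genes, 10 were higher in both replicates 3 and 4, against the 24.1% of all genes, and 2, Hsd3b1 and Hsd3b6, were higher in both replicates 1 and 2.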

How the data were processed

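Per the file headers, the log2 values deposited came from perfect-match probes through RMA in oligo, that is, after correcting background, equalizing quantiles and summarizing each probe set; no source used here gives versions. RMA compresses low signals, which understates differences of dim genes. The values of 28944 probe sets ran from 2.25 to 12.97 log2 in the vehicle arrays. The authors' workbook repeats them (largest difference 5.0e-09) and names 23812 probe sets with 1 symbol; 5132 had none. Of the genes, 20480 matched RefSeq (GRCm38.p6) by identifier and 239 did not, and 1875 symbols were updated. Each of 20719 genes was read from 1 probe set, that with the greatest mean across the 8 arrays; 1683 genes had more than 1.

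Means, SDs and counts were computed in Python 3.11.15 with pandas 2.3.3. The 4 arrays are 1 group with no contrast, so no test compared groups, and their number limits the precision. The rules were checked on simulated data. The named genes are the 6 markers, the 30 brightest and the 30 most variable genes without predicted models, up to 6 brightest members of each list above the olfactory range, 33 fixed genes, and members named for values within the range. Outside this rule, and named after their values were seen, are Abca1, Fdx1, Fdxr, Akr1c14, Srd5a1, Prkar1b, Adcy6, Adcy3, Pde8a, Pde2a, Nr2f1, Lhx9, Gsta4, Zeb1, Snai2, Col1a2, Col3a1, Cdh1, Mki67, Ccnd1, Cdk6, Cdkn2a, Rara, Mc1r, Ednra, Cntfr, Ifnar1, Igf1, Pdgfc, Pdgfd, Flt4, Ntrk3, Cav1, Tagln, Runx1, Grin2a, Dab1, Gda, Anxa8, Ctla2a, Diras2 and Vstm2a. The members and the 35 lists (773 of 775 genes measured) were chosen with earlier results of these data known. Alternatives were another probe set choice, reference or percentile, median centring, cyclic loess (limma 3.58.1 in R 4.3.3) and leaving out each replicate. Some members are not reported here.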

Additional observations from a re-analysis of the deposited data

Results flagged for a closer look

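Of 253 named genes, 7 had 1 vehicle array whose gap to the nearest of the other 3 took up more of the whole range than Dixon's 95% critical value allows; chance flags about 5% of such groups of 4. In replicate 1 these were Hsd3b6 (5.79, against 4.68 to 4.82 on the others), Prm1 (6.20, against 5.41 to 5.45) and Krt8, a keratin gene (5.94, against 6.33 to 6.40). In replicate 2 they were Egfr (9.82, against 9.40 to 9.46), Fshr (4.47, against 4.29 to 4.31) and Apoa1, an apolipoprotein gene (5.85, against 5.74 to 5.75). In replicate 4 it was Sox9 (7.52, against 7.42 to 7.43). The gaps of Fshr, Apoa1 and Sox9 were under 0.2 log2.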

How the results depend on the processing

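No paired analysis was possible because the values come from 1 group with no test between groups; the labels number vehicle and BIO pairs, but that contrast was not made here. Of 471 values recomputed under 14 alternatives, 459 kept their value or count as defined for these comparisons (a level within 1 SD, a count within 1.5 times). The 12 others are these. With the 99th percentile of olfactory receptor genes, which is a stricter rule, fewer members were above the range: 3 adrenal capsule genes, 1 each of the medulla, germ and pluripotent, endothelial, and glia and nerve lists, 23 receptors coupled to G proteins, 11 Wnt and Hedgehog genes, and 14 matricellular and vasoactive genes. With 216 vomeronasal receptor genes as reference, 11 Sertoli and 7 endothelial genes were above it, and with the vehicle mean in place of each array 5 endothelial genes were. These counts rest on dim probe sets near the edge. Leaving out each replicate left 13510 to 13621 genes above the range, 19 to 29 of the 30 most variable genes and 29 of the 30 brightest; the lowest, 19, came without replicate 4. Depth of signal over background is unknown for dim genes, since no detection call was used.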
